A study of Drosophila melanogaster with 3 samples.

Results

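The genes described here make the hormones of the larval ring gland or carry the brain signal that acts on it. They are Ptth and its receptor gene tor, the ecdysone synthesis genes nvd, sro, phm, dib and sad, the juvenile hormone gene jhamt and the adipokinetic hormone gene Akh. They were taken by name from the deposited expression table. All 9 were found, each in a row of its own, among 13358 named gene rows, and all 9 were among the 9693 genes that reached 1 RPKM (a read density scaled for transcript length and library size) in at least 1 library. Total RNA from brains of 3rd instar larvae of Drosophila melanogaster was sequenced in 3 libraries, 1 for each genotype. The library labelled double mutant came from animals homozygous for the dBRWD3 allele PX2 and for the yem allele GS21861 (dBRWD3PX2/PX2, yemGS21861/GS21861). The library labelled single mutant came from PX2 homozygotes (dBRWD3PX2/PX2), and the control library from heterozygotes (dBRWD3PX2/+), so the control animals also carried 1 copy of the allele. What PX2 and GS21861 do to their genes, the sex and exact age of the larvae and the number of brains pooled are not stated in the labels.

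The ring gland sits on the larval brain lobes and holds several endocrine tissues. Its prothoracic gland turns dietary cholesterol into ecdysone, the steroid precursor of the moulting hormone, and does so when the brain peptide PTTH, made by a small set of neurons that contact the gland, activates the receptor tyrosine kinase Torso and the Ras to MAP kinase cascade. The corpora allata make juvenile hormone, which maintains larval character, and the corpora cardiaca secrete adipokinetic hormone, a glucagon-like peptide that mobilises stored fat and sugar. Whether ring glands were left on the dissected brains is not stated, so the levels of these genes also report how much of the gland was in each sample. In bulk RNA, fewer cells of a type and less RNA per cell cannot be told apart.

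With 1 library per genotype there is no replicate spread to judge a difference by, and no p-values were computed. Every statement compares libraries, not genotypes. Ratios are log2((a + 1)/(b + 1)) of the RPKM values, and a gene was called where this ratio reached 2-fold in either direction. Among the 9693 genes, 2.70% were called higher and 3.60% lower in the single mutant than in the control library. The shares were 4.27% and 1.48% for the double against the single mutant and 3.06% and 1.62% for the double mutant against control. The median log2 ratio of all genes was 0.04, 0.04 and 0.07 in these comparisons. Rescaling without short or multicopy RNA genes moved the last 2 medians to 0.29 and 0.33 and the shares to 7.04% higher and 0.721% lower (double against single mutant) and 6.22% and 0.999% (double mutant against control), and median scaling gave 2.15% and 2.05% in the last. Judged from the lowest values in the table, the single mutant library held about 22.2 Mreads (units of 1000000 reads) and the double mutant and control libraries about 28.6 Mreads each. These are midpoints of adjacent bins that meet (20 to 25 and 25 to 33.3 Mreads), and if the control values are averages its figure does not stand for 1 library, so no order of depth is drawn and approximate read numbers below are rough. All 10 neuronal and all 10 glial marker genes reached 1 RPKM in at least 1 library. BRWD3 RNA had 47.8 RPKM in the double mutant, 43.2 in the single mutant and 29.1 in the control, and yem (listed as yemalpha) had 15.6, 8.04 and 11.9 RPKM in the same order, so RNA levels do not check the labels.

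Most ring gland genes had similar levels in the 3 libraries, and nvd was the member called. Within 1.5-fold lay 8 of 9 members in the single mutant against control (79.9% of all genes), 8 of 9 in the double against the single mutant (82.6%) and 9 of 9 in the double mutant against control (83.9%). The members' median log2 ratios were 0.00, -0.10 and -0.07. These shares lie close to those of all genes, so this is a description of the members and no sign that they were held more constant than others.

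**Figure D1:**
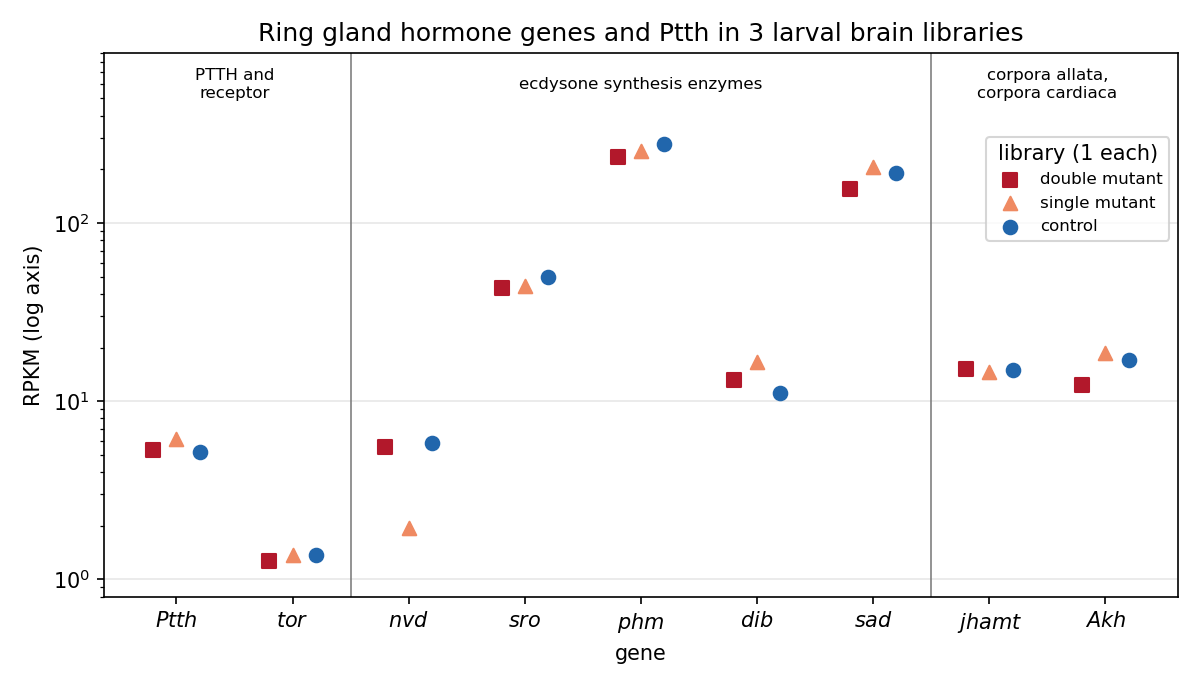
RPKM (log axis) of the 9 genes in the double mutant (squares), single mutant (triangles) and control (circles) libraries, 1 value each, grouped by role. The 3 symbols of a gene lie close together except for nvd, whose single mutant value of 1.95 RPKM stands below 5.53 RPKM in the double mutant and 5.83 RPKM in the control.

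Ptth, the gene for the peptide that starts ecdysone production, was expressed at a low and even level. It had 5.33 RPKM in the double mutant, 6.15 in the single mutant and 5.16 in the control library. The 3 values lay within 1.19-fold of each other, with the single mutant highest, although the double mutant was above it after rescaling without short or multicopy RNA genes (log2 ratio 0.07). These values rest on roughly 155, 139 and 150 reads. The row (2L, 574485 to 576896, dm3) shares its position with CG2813, now named cold, which had 28.8, 42.6 and 35.0 RPKM. In the BDGP6 annotation the exons of Ptth and cold share 24 bases on opposite strands, 2.13% of the exon bases of Ptth.

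The receptor gene tor was the lowest of the 9. It had 1.27 RPKM in the double mutant, 1.37 in the single mutant and 1.36 in the control library, or roughly 114, 95 and 122 reads. The values spanned 1.08-fold, and 7.40% of genes lay below tor in the double mutant, 10.8% in the single mutant and 9.35% in the control. The Ptth level exceeded that of tor by 4.19-fold in the double mutant, 4.48-fold in the single mutant and 3.78-fold in the control, per length of transcript. The row of tor (2R, 3586785 to 3597042) also holds the rows CG30493,CG30496 and CG34216, but no gene overlaps tor in BDGP6.

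Among the synthesis enzymes, phm and sad were the most abundant members in every library. Both encode cytochrome P450 hydroxylases that act late in the gland's part of the pathway, phm in the endoplasmic reticulum and sad in mitochondria. The level of phm, called phtm in current annotation, was 236 RPKM in the double mutant, 253 in the single mutant and 279 in the control library (X, 18579801 to 18582257). That of sad was 155 RPKM in the double mutant, 207 in the single mutant and 192 in the control (3R, 7702956 to 7708257). phm lay above 94.8% of genes in the double mutant, 94.9% in the single mutant and 95.4% in the control, and sad above 93.1%, 94.1% and 94.2%. The largest separation between libraries was 1.19-fold for phm and 1.33-fold for sad, with the double mutant lowest for both, although for phm it was highest after rescaling without short or multicopy RNA genes (log2 ratios of 0.18 to the single mutant and 0.05 to control).

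The short-chain dehydrogenase gene sro, which acts early in the pathway, had 43.4 RPKM in the double mutant, 44.4 in the single mutant and 49.9 in the control library (3R, 25620357 to 25625055). The 3 values lay within 1.15-fold. In BDGP6 9.45% of its exon bases are shared with Rnb (CG7837) on the opposite strand, which had 10.8, 14.6 and 13.8 RPKM.

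The P450 gene dib, another late hydroxylase of the gland, was lower than phm and sad by an order of magnitude or more. It had 13.1 RPKM in the double mutant, 16.7 in the single mutant and 11.2 in the control library (3L, 4062303 to 4071713). The single mutant was 1.49-fold above control, the widest separation of any enzyme gene except nvd. Of its exon bases, 20.3% (400 bases) are shared with wit, a gene for a BMP type II receptor on the opposite strand, which had 18.1, 18.3 and 14.3 RPKM. The labels do not say whether counting used strand, so reads of dib and wit cannot be separated there, and the part of wit in the dib values was not tested.

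nvd was the member that set the single mutant library apart. Its product, the Rieske oxygenase Neverland, converts cholesterol to 7-dehydrocholesterol in the first step of ecdysone synthesis. nvd had 5.53 RPKM in the double mutant, 1.95 in the single mutant and 5.83 in the control library. The double mutant and control values lay within 1.05-fold of each other and the single mutant value stood far below both. The single mutant level was 2.99-fold below control (log2 ratio -1.21 with 1 RPKM added), and the double mutant level was 2.83-fold above the single mutant (1.14). Only 2.16% of genes had a lower ratio of single mutant to control. The double mutant to control ratio was -0.07. The values rest on roughly 272 reads in the double mutant, 75 in the single mutant and 287 in the control library. With 5 RPKM added in place of 1 the ratios were -0.64 and 0.60, short of 2-fold. Thus in the single mutant against control 1 of 9 members was called lower (3.60% of all genes) and 0 of 9 higher (2.70%). For the double against the single mutant 1 of 9 was higher (4.27%) and 0 of 9 lower (1.48%), and between the double mutant and control 0 of 9 were higher (3.06%) and 0 of 9 lower (1.62%).

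**Figure D2:**
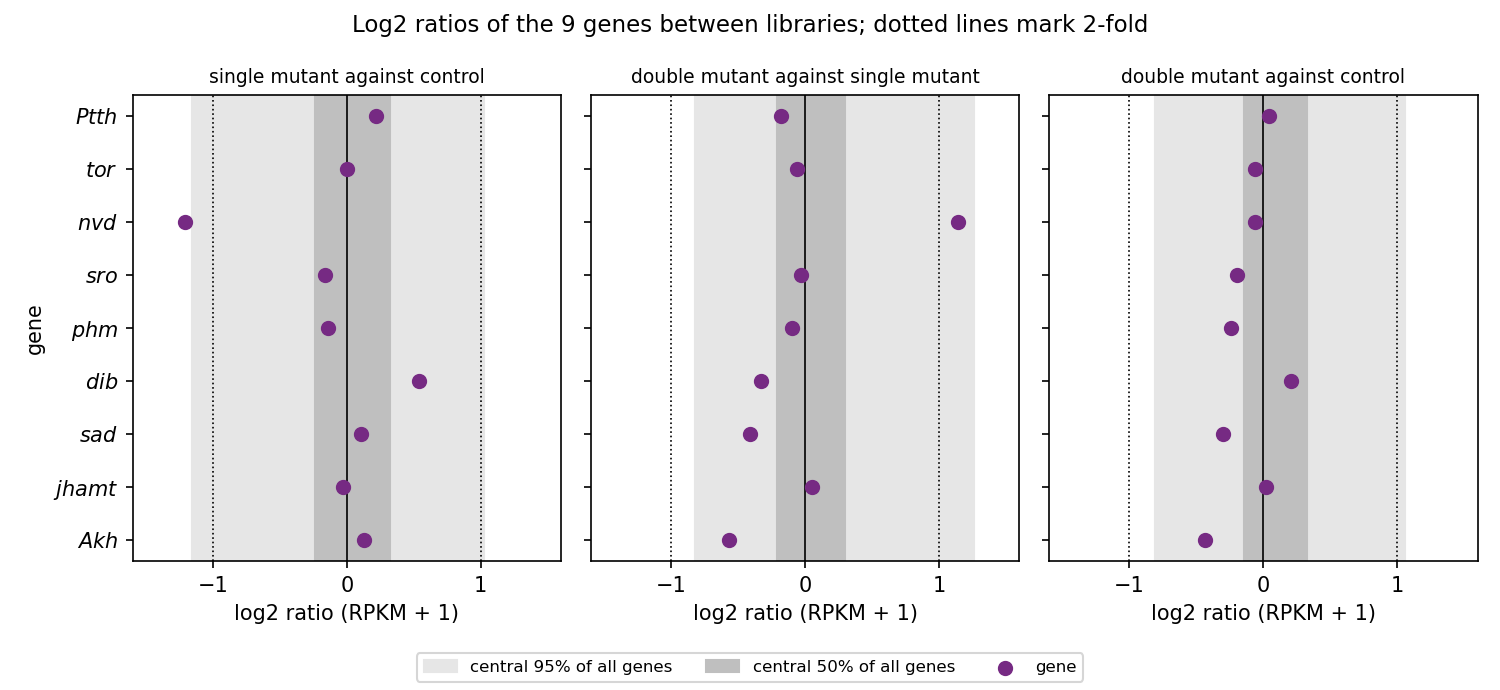
Log2 ratios, with 1 RPKM added, of the 9 genes (points) in the 3 comparisons. Bands hold the central 50% and 95% of the 9693 genes and dotted lines mark 2-fold; nvd lies at -1.21 (single mutant against control) and 1.14 (double against single mutant), and every other gene lies inside the dotted lines.

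The nvd pattern was uncommon but not restricted to it. The single mutant library was at least 2-fold below both others, while these lay within 1.5-fold of each other, in 143 of 9693 genes (1.48%). The opposite pattern, with the single mutant highest, occurred in 36 genes (0.371%). nvd lies in the pericentric part of 3L and its row covers 76.8 kb (24317966 to 24394755), although its annotated transcript has 1722 bases in 6 exons. The low pattern was seen in 1.63% of genes with a transcript of 1 to 2 kb and in 1.12% of the 712 genes whose rows span 50 kb or more.

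None of the measured rows around nvd was called. Within 1 Mb on either side 9 named genes were measured, and 0 of 9 were 2-fold apart in any comparison, where 6.30% (single mutant against control), 5.75% (double against single mutant) and 4.68% (double mutant against control) of all genes were. Their median log2 ratio between single mutant and control was 0.12, and the lowest was -0.62 (CG40470). A count of 0 in 9 genes lies near the shares of all genes, so it is only a description. The nearest on the side of lower coordinates, Snap25, a gene of the synaptic vesicle fusion complex, had 116 RPKM in the double mutant, 104 in the single mutant and 105 in the control library. The nearest on the other side, CG12460, had 1.44, 0.613 and 0.487 RPKM. No annotated gene shares exon bases with nvd in BDGP6.

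Levels were also set against phm, a gene of the same gland. With 1 library per genotype, and phm free to differ itself, gland amount and RNA per cell cannot be told apart by such a ratio. Per 100 RPKM of phm, nvd had 2.34 RPKM in the double mutant, 0.772 in the single mutant and 2.09 in the control library. On the same scale sro had 18.4, 17.6 and 17.8 RPKM, the narrowest span of the 4. sad had 65.8, 81.7 and 68.6 RPKM, while dib had 5.55 RPKM in the double mutant and 6.59 in the single mutant and was lower in the control. Relative to phm, therefore, the single mutant library was lowest for nvd and, by a small margin, for sro, and highest for sad and dib. The summed level of the 5 enzyme genes was 453 RPKM in the double mutant, 523 in the single mutant and 538 in the control, a 1.19-fold span. Most of that sum is phm and sad, so it hardly registers nvd or dib.

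**Figure D3:**
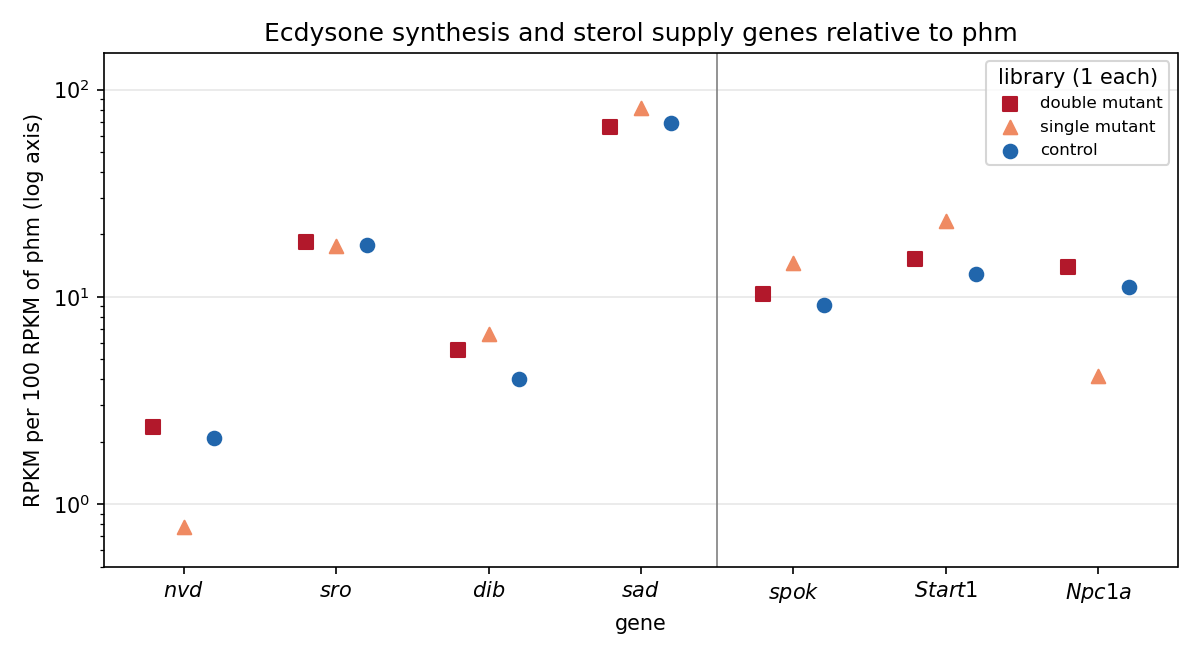
Levels of ecdysone synthesis enzyme genes (left of the line) and of spok and the sterol supply genes Start1 and Npc1a (right), as RPKM per 100 RPKM of phm on a log axis, 1 value per library. The genes on the right were chosen with their values known. The single mutant value is lowest for nvd (0.772) and Npc1a (4.16) and highest for dib, sad, spok and Start1, and the 3 values of sro nearly coincide (18.4, 17.6 and 17.8, lowest in the single mutant).

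jhamt, which encodes the methyltransferase of the last step of juvenile hormone synthesis, was the most even member in the values as deposited, although not after rescaling without short or multicopy RNA genes (log2 ratios of the double mutant 0.32 to the single mutant and 0.30 to control, with 0.10 and 0.11 for tor). Its level was 15.2 RPKM in the double mutant, 14.6 in the single mutant and 14.9 in the control library (2L, 16365918 to 16366977), a span of 1.04-fold. The peptide hormone gene Akh (3L, 4141466 to 4142070) had 12.3 RPKM in the double mutant, 18.7 in the single mutant and 17.0 in the control, or roughly 188, 222 and 260 reads. Akh was thus lowest in the double mutant, 1.52-fold below the single mutant and 1.38-fold below control, neither of which passed 2-fold. Only 6.58% and 7.51% of genes had lower ratios in these comparisons.

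The order of levels was alike in the 3 libraries. phm, sad and sro came first in each, tor came last, and jhamt, dib and Akh exchanged places in the middle within 11.2 to 18.7 RPKM. nvd and Ptth followed, with nvd above Ptth in the double mutant and control libraries and below it in the single mutant. The range from tor to phm was 186-fold in the double mutant, 184-fold in the single mutant and 205-fold in the control.

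Genes with the closest pattern over the 3 libraries were picked for phm, Ptth and Akh by distance in centred log2(RPKM + 1). For phm they were CG9140, eRF1 and Uch, at distances of 0.0027, 0.0031 and 0.0062 among 738 candidates. For Ptth they were CG9945, MAN1 and CG18549, with distances up to 0.0097 among 3998, and for Akh CG12288, CG1868 and CG11069, with distances up to 0.035 among 4804. Within a distance of 0.1 lay 58, 215 and 24 genes, so a likeness over 3 values is shared by many rows.

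Other genes of ecdysteroid synthesis and sterol supply were measured in 10 of 12 cases. In the single mutant library 1 of 10 was called lower and 0 higher than in control (3.60% and 2.70% of all genes). The median log2 ratio of the list was 0.38. Here and in the lists below, a count of 1 describes that gene and not its list. The called gene was Npc1a, which encodes the transporter that releases cholesterol from endosomes. Npc1a had 32.9 RPKM in the double mutant, 10.5 in the single mutant and 31.0 in the control library, so the single mutant was 2.95-fold below control and the other libraries were nearly equal. This is the same arrangement as that of nvd. Against the single mutant, 1 of 10, again Npc1a, was higher and 0 lower in the double mutant (4.27% and 1.48% of all genes). The list median was -0.12.

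Start1 and spok lay the other way. Start1, a START-domain sterol carrier of the prothoracic gland, had 35.8 RPKM in the double mutant, 58.5 in the single mutant and 36.2 in the control library. spok, a P450 gene of the so-called black box steps just after nvd, had 24.2, 36.8 and 25.7 RPKM in the same order. Both were highest in the single mutant, by 1.62-fold and 1.43-fold over control, short of the 2-fold line. The secreted sterol-binding gene Npc2a had 451, 460 and 309 RPKM. dare, the adrenodoxin reductase gene that supplies electrons to mitochondrial P450 enzymes, lies in the joined row CG18335,dare,fbl6 with 44.7, 41.8 and 44.4 RPKM.

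Between the double mutant and control 1 of 10 was lower and 0 higher (1.62% and 3.06% of all genes), with a median of 0.05. The gene was Cyp6t3, a P450 gene required in the prothoracic gland, with 2.03 RPKM in the double mutant, 2.69 in the single mutant and 6.14 in the control library. Both mutant libraries lay below the control, by 3.03-fold in the double and 2.28-fold in the single mutant by RPKM, although with 1 RPKM added the single mutant fell short of 2-fold (-0.95). With a pseudocount of 5 RPKM the call against control ended, and with 0.1 RPKM or median scaling 2 genes of the list were lower in the single mutant against control. The table gives Cyp6t3 the same position as its relative Cyp6g2, and how reads were divided between them is not known here. Cyp18a1, whose product inactivates the moulting hormone and whose row begins 312 bases from that of phm, had 1.07, 1.43 and 0.716 RPKM. It was named after its values were seen. shd, which makes the active hormone in peripheral tissues, and spo, the embryonic relative of spok, did not reach 1 RPKM in any library.

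Several regulators of the synthesis genes were higher in the double mutant library. Of 10 measured, 4 were called higher and 0 lower than in control (3.06% and 1.62% of all genes), with a median log2 ratio of 0.71. Eip75B, an ecdysone-induced nuclear receptor gene, had 30.1 RPKM in the double mutant, 18.6 in the single mutant and 10.8 in the control library. The broad gene br, in the joined row br,dor, had 32.9, 19.4 and 14.0 RPKM, while the joined row of Hr46 and CG12912 stood at 2.28, 2.09 and 0.573 RPKM. Hr4, a nuclear receptor known to repress Cyp6t3 in the prothoracic gland, is listed as CG3600,CG42527 with 3.32, 0.391 and 0.317 RPKM. The double mutant was highest for each of these genes. Hr4 passed the filter only through the double mutant and Hr46 only through the mutant libraries, where they are high, so the filter favoured both calls and the count over measured genes is a description. The count was 2 with a pseudocount of 5 RPKM or a filter at 5 RPKM, and 1 with joined rows left out. Long transcripts stood higher in this library in general: the median ratio to control was 0.26 for genes with transcripts of 4 kb or more, against 0.07 for all genes, and all 4 called genes have transcripts in that class. Genes of the list not called against control, among them mld, vvl and EcR, have transcripts in that class too. The summed neuronal markers were also highest in the double mutant (167 RPKM, with 117 in the single mutant and 100.1 in the control), while in the single mutant 6 of the 10 markers were above control and 4 below. The part of transcript length and of neuronal RNA in these ratios was not tested.

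Against the single mutant, the regulators had a median of 0.52 in the double mutant. Of the 10, 2 were higher and 0 lower (4.27% and 1.48% of all genes). They were Hr4 and vvl, a POU-domain factor needed for the synthesis genes, which had 6.90 RPKM in the double mutant, 2.46 in the single mutant and 3.11 in the control library. The call of Hr4 was again favoured by the filter. The count was 0 with a pseudocount of 5 RPKM, 1 with a filter at 5 RPKM or with joined rows left out, and 4 after rescaling without short or multicopy RNA genes. In the single mutant against control 0 of 10 were called in either direction (6.30% of all genes), with a median of 0.26. With a pseudocount of 0.1 RPKM 1 was called higher. EcR and usp, which encode the partners of the ecdysone receptor, had 30.8, 17.3 and 22.9 RPKM and 21.6, 23.7 and 15.1 RPKM. Also listed, and named after their values were seen, were mld, a zinc finger factor needed for nvd and spok, and ouib (listed as CG11762), needed for spok. mld had 6.20, 4.54 and 4.26 RPKM, and ouib had 10.4, 12.9 and 9.03 RPKM. These are levels in RNA of the whole sample, and the part of either factor in the nvd and spok values was not tested.

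Components of Torso signalling, which are used by many receptors besides Torso, were all measured (15 of 15). In the single mutant the median was 0.16 against control. There 1 of 15 was called lower and 0 higher (3.60% and 2.70% of all genes). The gene was cnk, a scaffold for Raf, with 16.0 RPKM in the double mutant, 5.40 in the single mutant and 14.2 in the control library. Like nvd and Npc1a it was low in the single mutant and near equal in the other libraries. Its call against control ended with a pseudocount of 5 RPKM. These 3 were the only genes with that pattern among the 9 members and the 70 measured pathway genes. Since 143 of all 9693 genes (1.48%) had it, the count is a description and no sign of a shared pathway pattern. Against the single mutant 1 of 15, cnk again, was higher and 0 lower in the double mutant (4.27% and 1.48% of all genes). The list median was -0.03. Against control the median was 0.17, with 1 of 15 higher and 0 lower in the double mutant (3.06% and 1.62% of all genes). That gene was csw, the SHP2-type phosphatase gene, with 8.75, 6.88 and 3.50 RPKM. It dropped below 2-fold with median scaling and with a pseudocount of 5 RPKM. The small GTPase gene Ras85D had 72.6, 74.2 and 67.6 RPKM, the MAP kinase gene rl 37.9, 49.3 and 34.1 RPKM, and the inhibitor gene sty, in the row eIF5B,sty, 82.3, 79.7 and 90.4 RPKM.

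Of 17 genes for inputs to PTTH neurons and receptors of the prothoracic gland, 14 were measured. In the single mutant the median was -0.10 against control. There 1 of 14 was lower and 0 higher (3.60% and 2.70% of all genes). It was Octbeta3R, an octopamine receptor gene, with 0.995 RPKM in the double mutant, 0.450 in the single mutant and 2.66 in the control library. At such levels the gene passed the filter only through the control, and the call ended with a pseudocount or a filter of 5 RPKM. In the double mutant 1 of 14, InR, was higher and 0 lower than in the single mutant (4.27% and 1.48% of all genes). Against control 0 of 14 were called (4.68% of all genes). Both medians were 0.23. The number higher than in the single mutant was 0 with a pseudocount of 5 RPKM, 3 with 0.1 RPKM and 2 after rescaling without short or multicopy RNA genes. Against control, 1 was higher and 1 lower with 0.1 RPKM, and 1 was higher after that rescaling. The insulin receptor gene InR had 10.6 RPKM in the double mutant, 4.35 in the single mutant and 6.94 in the control library. The 3 most abundant of the list stayed within 1.5-fold, with Egfr at 49.8, 49.3 and 53.9 RPKM, spi, which encodes a ligand of that receptor, at 39.4, 41.6 and 29.4 RPKM, and put, a type II receptor of activin and BMP ligands, at 30.1, 32.4 and 29.5 RPKM.

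Juvenile hormone genes other than jhamt were measured in 11 of 13 cases. In the single mutant the median was 0.01 against control. There 1 of 11 was lower and 0 higher (3.60% and 2.70% of all genes). That gene, Jheh3, encodes 1 of the epoxide hydrolases that break the hormone down and had 3.57 RPKM in the double mutant, 1.02 in the single mutant and 6.56 in the control library. Its relative Jheh2 had 88.4, 104 and 102 RPKM, and the labels do not say how reads were divided between these related genes. Against the single mutant Jheh3 was also the 1 of 11 called higher in the double mutant (0 lower, median 0.34). Among all genes 4.27% were higher and 1.48% lower there. Between the double mutant and control 1 of 11 was higher and 0 lower (3.06% and 1.62% of all genes), with a median of 0.15. It was JhI-26, a gene induced by juvenile hormone, with 5.52, 3.87 and 1.92 RPKM. All the calls of Jheh3 and JhI-26 ended with a pseudocount of 5 RPKM, and 2 genes were higher in the double mutant than in control after rescaling without short or multicopy RNA genes. Hmgs, of the mevalonate pathway that supplies the hormone's precursors, had 37.0, 23.7 and 35.2 RPKM, and the corpora allata P450 gene Cyp6g2 had 17.8, 22.5 and 25.6 RPKM.

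Genes that process adipokinetic hormone or respond to it were measured in 10 of 11 cases. Of all genes 6.30% (single mutant against control), 5.75% (double against single mutant) and 4.68% (double mutant against control) were called. Of the 10 measured in this list 0 were called in any comparison. The nearest was bmm, a fat lipase gene named after its values were seen, with 3.18 RPKM in the double mutant, 3.05 in the single mutant and 6.48 in the control library. It was 2.04-fold below control in the double and 2.13-fold in the single mutant by RPKM, and 1 gene was called lower in both comparisons with a pseudocount of 0.1 RPKM. Medians were 0.16 in the single mutant against control, -0.02 in the double against the single mutant, then 0.08 for double mutant against control. Phm, the peptide-amidating monooxygenase gene, which is a different gene from phm, had 56.8 RPKM in the double mutant, 72.6 in the single mutant and 51.7 in the control library. Pal, a gene for the lyase that completes amidation, had 46.0, 48.3 and 49.2 RPKM, and the carboxypeptidase gene svr had 26.6, 26.1 and 21.5 RPKM. The hormone's receptor gene, listed as GRHR, stayed below 1 RPKM in all 3 libraries, and its known place of action is the fat body.

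**Figure D4:**
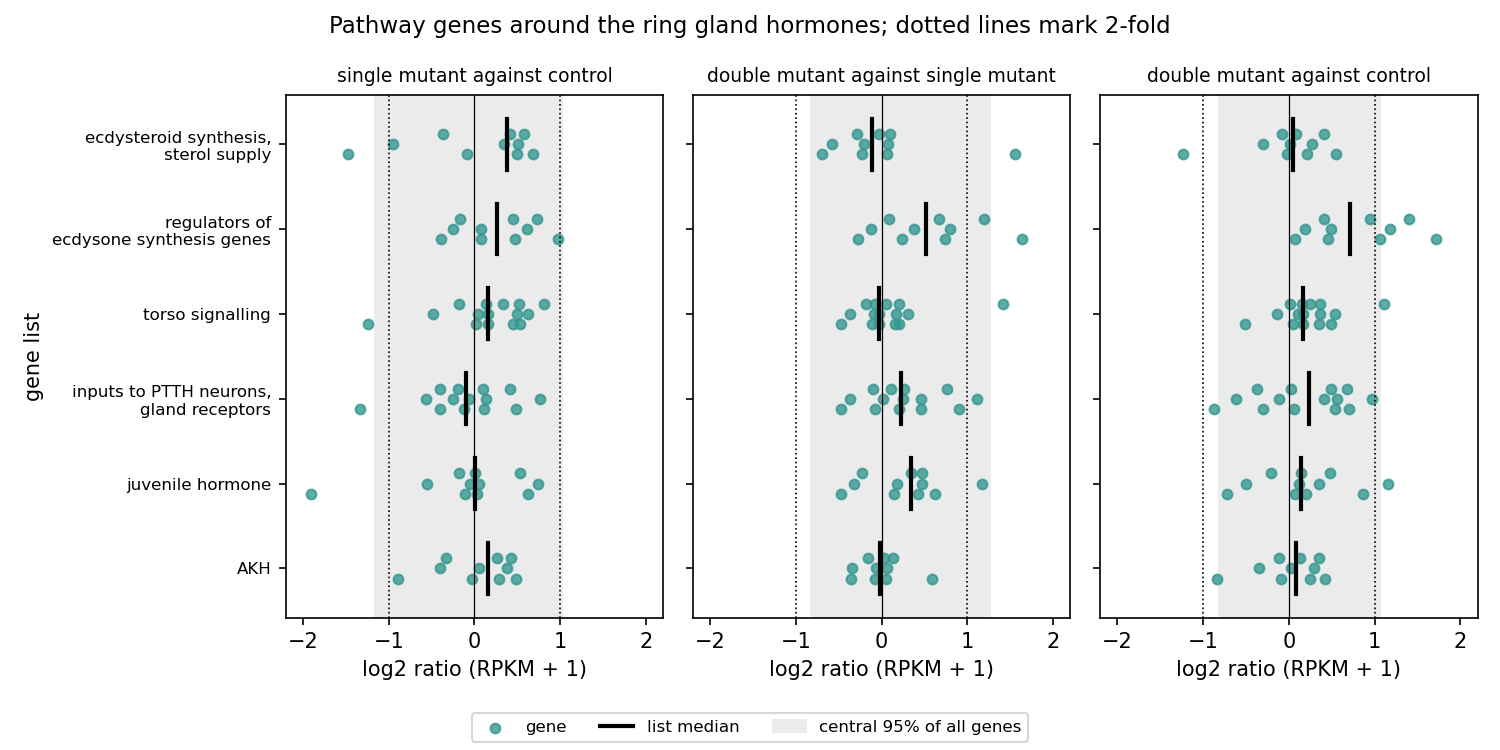
Log2 ratios, with 1 RPKM added, of the measured genes of 6 lists in the 3 comparisons. Points are genes, black bars list medians, the grey band the central 95% of the 9693 genes and dotted lines 2-fold; the list of regulators lies to the right in the double mutant against control, with a median of 0.71.

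Marker RNA of several other larval tissues lay further apart between the libraries than the enzyme sum. The summed level of 10 gut marker genes was 48.8 RPKM in the double mutant, 5.61 in the single mutant and 116 in the control library. LysS, named because of its value, was the gut marker listed at 0 in the single mutant, and none were at 0 in the other libraries. For 9 fat body rows the sums were 1390, 308 and 651 RPKM, and for 10 salivary gland rows 108, 645 and 164 RPKM, with ng1 listed at 0 in the single mutant. The salivary sum rests on the glue genes Sgs5, Sgs7 and Sgs8, named because of their values. Sgs7 had 46.7, 317 and 84.0 RPKM, whereas ng3, chosen likewise, had 12.4, 0.604 and 0.934 RPKM. Sums for 10 hemocyte genes were 1033, 441 and 375 RPKM. Highest and lowest library thus lay 20.8-fold apart for gut, 4.51-fold for fat body, 5.95-fold for salivary gland and 2.76-fold for hemocytes, against 1.19-fold for the ecdysone enzymes. The enzyme sum rests mostly on phm (236, 253 and 279 RPKM) and sad (155, 207 and 192 RPKM), and says little about nvd or dib. The neuronal sum varied by 1.67-fold, the tracheal sum varied by 1.04-fold and the glial sum by 1.12-fold. The markers of a list did not all move together. In the single mutant against control 8 of 10 gut markers were lower and 2 higher, and 8 of 9 fat body rows were lower and 1 higher. Of the 10 hemocyte genes 6 were higher and 4 lower. In the double mutant against control, where the hemocyte sums lay furthest apart, 9 of these 10 were higher and 1 lower. In the single mutant library the low gut and fat body sums stood beside low nvd, Npc1a, cnk and Jheh3. The part of gut and fat body RNA in those values was not tested.

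**Figure D5:**
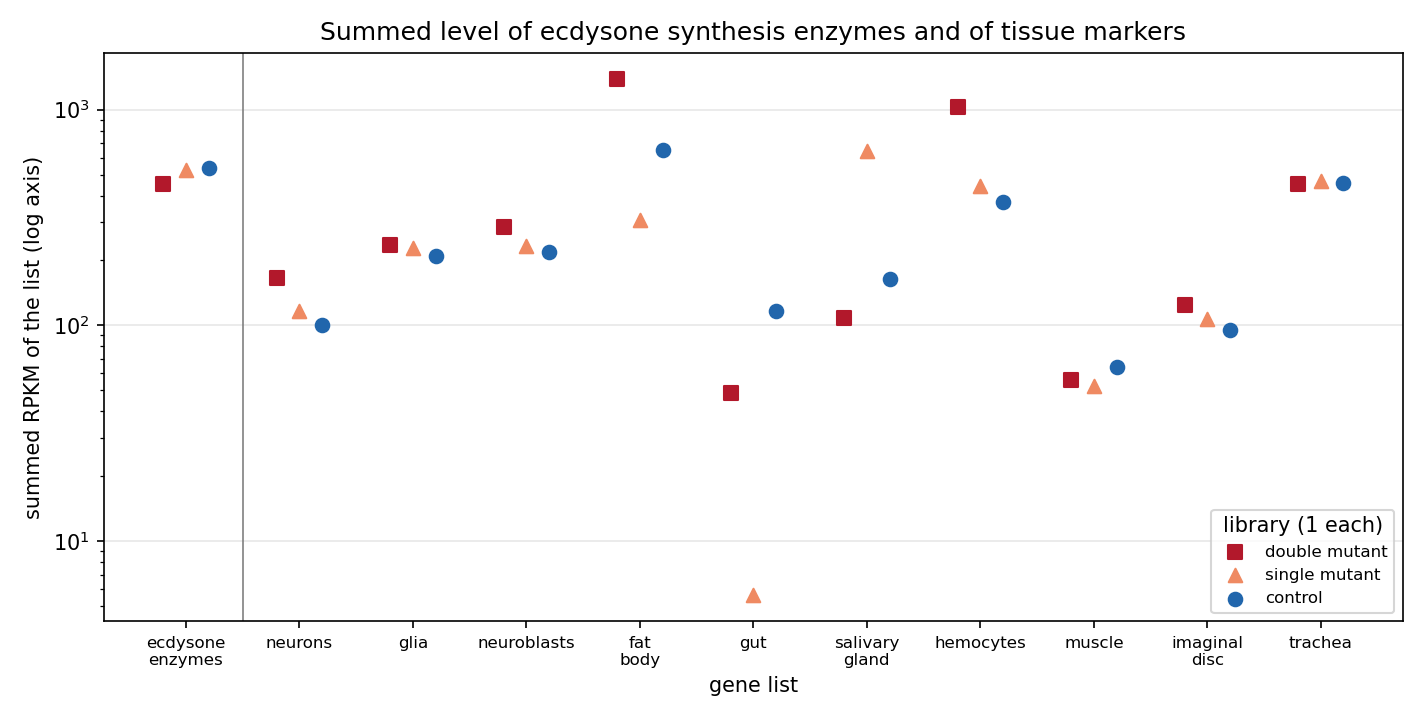
Summed RPKM (log axis) of the 5 ecdysone synthesis enzyme genes and of marker lists of neural and non-neural tissues in the 3 libraries. The enzyme sum, mostly phm and sad, lies between 453 and 538 RPKM, whereas the gut sum runs from 5.61 in the single mutant to 116 RPKM in the control.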

How the data were processed

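Per the submitters' processing notes, reads were handled with FastQC, Trimmomatic, TopHat2 2.0.9 and Cufflinks 2.0.2 on build dm3. Per the labels' protocols, TRIzol RNA was freed of DNA and of ribosomal RNA before Ion library preparation. Settings, strand handling and any pooling are not stated. The authors deposited 1 table of RPKM values with 15229 rows. Rows without a gene name (11.6%) were left out, and where a name recurred the row of highest mean was used. In the control column 51.0% of the values above 0 have more than 6 digits, against 0% in both mutant columns, so the control values may be averages and were used as deposited.

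From these values log2((a + 1)/(b + 1)) was computed for the genes that reached 1 RPKM in any library (Python 3.11.15, numpy 2.4.6, pandas 2.3.3). No test was run, since each genotype has 1 library. The calculation was run on simulated data with large known folds in well expressed genes and little added noise. That run checks the arithmetic only and does not cover calls at levels such as those of nvd. Approximate read numbers are RPKM times the longest annotated transcript (kb), divided by the commonest lowest such product in each library, and they carry no interval. Transcript lengths, exon overlaps and current symbols are from Ensembl release 115 (BDGP6). Its coordinates were not used, and those printed are the table's, in dm3. Genes of the pathway lists were named if at least 2-fold apart in any comparison or among the 3 most abundant of their list. Outside this rule spok, Cyp18a1, mld, ouib, bmm, shd, spo and the gene listed as GRHR were named. Likeness was sought among genes with a mean within 3-fold. The members and lists were chosen with earlier results of these data known. Promoter, transcript and protein sequences were not used here.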

Additional observations from a re-analysis of the deposited data

How the results depend on the processing

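Of 54 recomputed counts of members called, 52 were unchanged within 1.5 times under 9 alternatives (other pseudocounts, filters, scalings, row handling and a 1.5-fold line). Both exceptions came with a pseudocount of 5 RPKM, which by construction shrinks ratios of low genes: the number of members lower in the single mutant against control became 0, and the number higher in the double against the single mutant became 0, since the nvd ratios became -0.64 and 0.60. The filter and row handling alternatives could not change a member count. Each member has a row of its own that joins no other gene, and only tor, which was not called, lies below 5 RPKM in every library. The total is thus no measure of how firm the calls are. Over all alternatives the nvd ratio ran from -1.53 to -0.64 (single mutant against control) and from 0.60 to 1.45 (double against single mutant). Subtracting the median of the transcript length class, an alternative added after the data were seen, changed no member's call. After rescaling without short or multicopy RNA genes the phm and sro ratios turned from below to above 0 (0.18 and 0.25 for the double against the single mutant, 0.05 and 0.09 against control), as did those of tor in both and of Ptth and nvd in 1 each. Counting these, the sign changed in 13 of 267 recomputed member ratios over all alternatives. Another was that of tor in the single mutant against control, at -0.04 with median scaling. Of 324 recomputed pathway counts, 45 moved by more than 1.5 times. No paired analysis was possible because each genotype has 1 library. Values of tor, Ptth and single mutant nvd rest on the fewest reads.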
